A study of Mus musculus with 24 samples.

Results

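The genes described here are the 10 AP-1 genes *Batf*, *Batf3*, *Jun*, *Junb*, *Jund*, *Fos*, *Fosb*, *Fosl1*, *Fosl2* and *Jdp2*. They were found among 45547 names on the array by matching each probe's RefSeq transcript to the listed symbols, which gave 14 probes, of which 4 genes had a pair. The list was chosen from measured values of these same arrays, so the levels of its members are given as a description and carry no test. Total RNA was measured on 24 one-colour Agilent whole-mouse arrays, 1 sample per array, in 7 lines.

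The melanoma model was made of 5 lines of B16F1 cells, a mouse melanoma line, carrying green fluorescent protein. B16F1-GFP-M (3 arrays) was the parental line, B16F1-GFP-D (4 arrays) was recovered from mice after long dormancy under immunotherapy, and B16F1-GFP-DB#1 (4 arrays), B16F1-GFP-DB#2 (3 arrays) and B16F1-GFP-DB#3 (3 arrays) were a later generation taken from the brain. They are called M, D, DB#1, DB#2 and DB#3. The other 2 lines, M0 (4 arrays) and J365 (3 arrays), are labelled only as myeloid cells, and the labels do not say which leukemia line of the study each one is. All lines were amplified in culture before RNA was taken. Nothing in the labels ties the arrays of a line to separate cultures or animals, and p-values then measure only the spread between these arrays. The arrays filled 3 slides, and each slide held every line.

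AP-1 factors are basic leucine zipper proteins that bind DNA as dimers. Jun proteins pair with each other or with Fos proteins, whereas Fos proteins need a partner, and both families are known for fast induction by growth factors and MAP kinases. Batf, Batf3 and Jdp2 are small members without a long activation domain that pair with Jun proteins. Batf and Batf3 are best known from lymphocytes and dendritic cells, where dimers with Jun proteins bind DNA together with interferon regulatory factors.

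Promoter sequences of the 4 genes whose values are followed most closely are shown so that the letters searched for can be seen beside the measurements. The windows run from 250 bases before to 50 bases after the annotated start, come from RefSeq on assembly GRCm38.p6 and are written 5′ to 3′ on the gene's strand. *Batf* (chr12:85686470-85686769, plus strand) and *Fos* (chr12:85473640-85473939, plus strand) have the letters TGACGT in capitals, *Jun* (chr4:95052173-95052472, minus strand) has TGACATCA in capitals, and *Batf3* (chr1:191098164-191098463, plus strand) has CACGTG in capitals.
Batf: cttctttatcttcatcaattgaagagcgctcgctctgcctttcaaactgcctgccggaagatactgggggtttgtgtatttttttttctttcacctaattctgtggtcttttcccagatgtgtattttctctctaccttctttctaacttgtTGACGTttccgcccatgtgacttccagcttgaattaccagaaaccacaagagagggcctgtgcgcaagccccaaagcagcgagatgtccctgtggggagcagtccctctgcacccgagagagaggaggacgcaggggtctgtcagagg
Batf3: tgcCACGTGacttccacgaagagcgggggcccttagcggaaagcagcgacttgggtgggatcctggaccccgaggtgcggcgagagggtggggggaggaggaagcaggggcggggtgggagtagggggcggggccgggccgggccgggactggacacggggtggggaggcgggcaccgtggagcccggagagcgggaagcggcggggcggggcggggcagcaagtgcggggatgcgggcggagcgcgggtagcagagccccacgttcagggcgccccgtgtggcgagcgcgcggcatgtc
Fos: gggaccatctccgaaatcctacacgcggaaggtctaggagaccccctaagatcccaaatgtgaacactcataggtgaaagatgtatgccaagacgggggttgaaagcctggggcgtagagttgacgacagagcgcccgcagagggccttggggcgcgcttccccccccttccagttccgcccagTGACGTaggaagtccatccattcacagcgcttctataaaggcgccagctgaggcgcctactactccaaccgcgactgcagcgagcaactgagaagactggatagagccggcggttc
Jun: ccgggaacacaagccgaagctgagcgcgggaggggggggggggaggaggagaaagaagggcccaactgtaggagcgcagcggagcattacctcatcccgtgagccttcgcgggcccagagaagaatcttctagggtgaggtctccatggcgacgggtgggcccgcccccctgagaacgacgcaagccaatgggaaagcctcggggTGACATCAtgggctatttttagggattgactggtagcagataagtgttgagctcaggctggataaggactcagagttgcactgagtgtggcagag

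Of the 10 genes, 9 had a window in the table, *Jdp2* had 3 windows, and *Fosl1* was not matched. The pattern TGANTCA, in which N is any base, is wider than the AP-1 site, whose middle base is C or G. Searched on both strands, this pattern was in 0 of the 11 member windows and in 7.81% of all 32851 windows. The cyclic AMP response element TGACGTCA was also in 0 of 11 and in 1.79% of all windows. Its first 6 letters, TGACGT, were in the windows of *Batf*, *Fos* and 1 of the *Jdp2* windows, beginning at positions -98, -66 and -114 relative to the start, and in 7.51% of all windows. TGACATCA began at -45 in the *Jun* window and was in 3.62% of all windows, and the E-box CACGTG began at -247 in the *Batf3* window and was in 7.15% of all windows. These matches describe letters and are not shown binding sites.

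*Batf* was lowest in M, somewhat higher in D, and several-fold higher in each line taken from the brain. Its normalized log2 signal, the log2 intensity minus the 75th percentile of the array, was -1.63, -1.77 and -1.47 on the M arrays. It was -0.93, -0.89, -1.24 and -1.05 on the D arrays. No D array was as low as any M array, so the groups did not overlap. On the DB#1 arrays the signal was 0.74, 0.94, 1.27 and 0.90. It was 0.75, 0.90 and 0.83 on the DB#2 arrays and 0.78, 0.89 and 1.25 on the DB#3 arrays. Each of these 10 arrays lay above every M and every D array, and the 3 brain-derived lines overlapped one another. The myeloid lines were higher again, with 2.39, 2.47, 2.11 and 1.82 in M0 and 2.69, 2.38 and 2.57 in J365. The probe was well above background, by the mark of the scanner software, on all 24 arrays.

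The step between D and the brain-derived lines was the largest *Batf* difference between neighbouring line means of the order M, D, DB#2, DB#1, DB#3, M0, J365. Relative to M, *Batf* was higher by 2.59 ± 0.18 on the log2 scale in DB#1 (estimate ± SE of the all-gene fit), 6.0-fold. In DB#2 the difference was 2.45 ± 0.19, or 5.46-fold, and in DB#3 it was 2.60 ± 0.19, or 6.04-fold. D was higher than M by 0.60 ± 0.18, or 1.51-fold. Relative to D, the differences were 1.99 ± 0.17 in DB#1, 1.85 ± 0.18 in DB#2 and 2.00 ± 0.18 in DB#3, between 3.61-fold and 3.99-fold. J365 and M0 overlapped, with a difference of 0.35 ± 0.18.

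*Batf* read higher on slide 1 in several lines, and slide took 49.5% of its variance within lines. The lines were therefore also set against each other on each slide. DB#1 minus M was 2.73, 2.51 and 2.56 on slides 1, 2 and 3, and DB#2 minus M was 2.37, 2.51 and 2.47. DB#3 minus M was 2.71, 2.66 and 2.41. D minus M was 0.56, 0.53 and 0.59, so the order M, D, brain-derived line held on each slide. Under normexp background correction of the spot medians, the DB#1 difference was 2.09, the DB#2 difference 2.02 and the DB#3 difference 2.05.

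**Figure D1:**
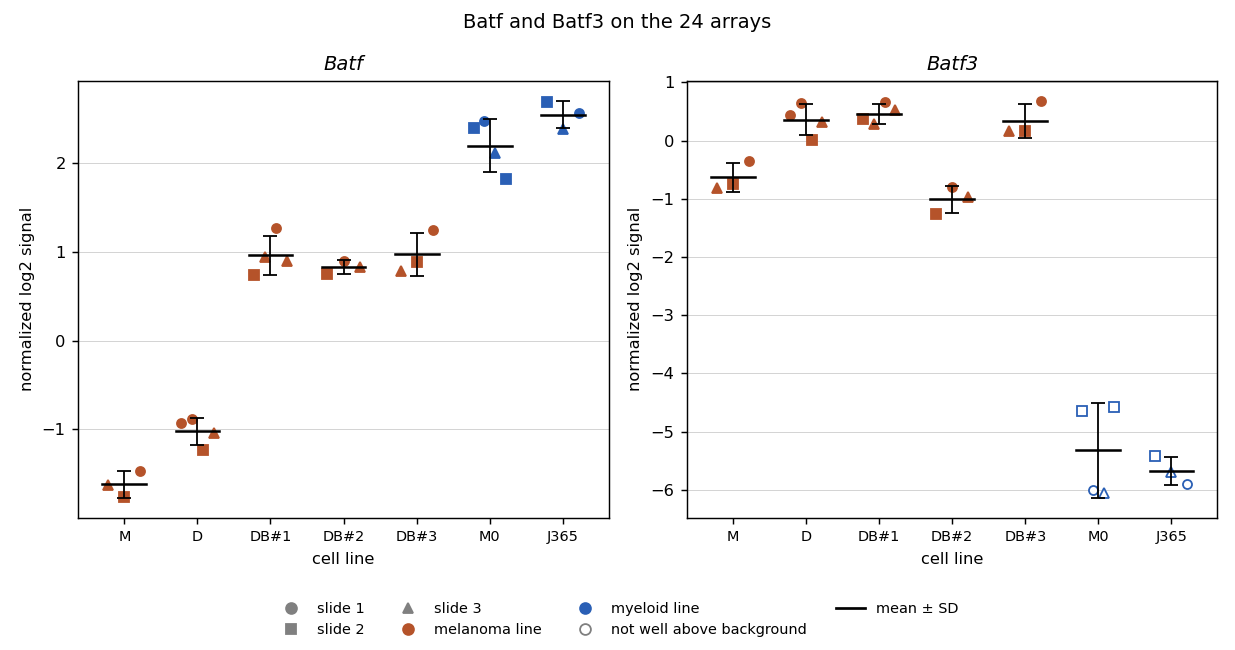
Normalized log2 signal of Batf and Batf3 (vertical axis) on each array, by line (horizontal axis); marker shape gives the slide, open markers were not well above background, and black bars are the mean ± SD of 3 or 4 arrays. Batf lay between -1.77 and -0.89 in M and D and between 0.74 and 1.27 in the DB lines, and Batf3 was not read on any myeloid array.

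*Batf3*, the close relative of *Batf*, followed a different order among the melanoma lines. The M arrays gave -0.81, -0.74 and -0.34, and the D arrays 0.44, 0.65, 0.01 and 0.32. DB#1 gave 0.37, 0.28, 0.66 and 0.53, and DB#3 gave 0.16, 0.17 and 0.68. D, DB#1 and DB#3 overlapped one another and did not overlap M. DB#2 stood apart from them with -1.25, -0.81 and -0.97, a range that touched that of M. Relative to M, *Batf3* was higher by 0.99 ± 0.31 in D (1.98-fold), 1.09 ± 0.31 in DB#1 (2.13-fold) and 0.97 ± 0.33 in DB#3 (1.96-fold). In DB#2 it was -0.38 ± 0.33 relative to M. DB#2 was lower than D by 1.37 ± 0.31, and the difference was -1.35, -1.27 and -1.29 on slides 1, 2 and 3. DB#2 thus had *Batf* at the level of the other brain-derived lines and *Batf3* at or under the level of M.

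*Batf3* was not well above background on any of the 7 myeloid arrays and was so on all 17 melanoma arrays. M0 and J365 therefore have only an upper bound. Measured from the lowest signal that counted as above background on the same arrays, the melanoma lines were at least 8.45-fold (DB#2) to at least 23.4-fold (DB#1) higher than M0. They were at least 9.32-fold (DB#2) to at least 25.8-fold (DB#1) higher than J365. *Batf* and *Batf3* were thus ordered in opposite directions between the cell types, since *Batf* was lower in the melanoma lines by 2.35 ± 0.11 on average, 5.10-fold.

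*Batf*, *Jdp2* and *Fos* follow one another on chromosome 12, and among the genes between them listed in the RefSeq table none other than these had a probe here. The next gene after *Batf* with a probe, *Flvcr2*, a transporter gene, was well above background on 1 array. *Jdp2*, which encodes a repressor dimer partner of Jun, was 2.54 ± 0.09 (SD) in M, 2.31 ± 0.45 in D, 2.55 ± 0.22 in DB#1, 2.09 ± 0.16 in DB#2 and 2.48 ± 0.21 in DB#3. Only DB#2 did not overlap M, with a difference of -0.45 ± 0.23. *Jdp2* in M0 was 3.05 ± 0.26 and in J365 3.33 ± 0.09. Every myeloid array was above every melanoma array, and the melanoma lines were lower by 0.80 ± 0.13 on average. *Jdp2* and *Fos* did not share the step of *Batf* between D and the brain-derived lines: DB#1, DB#2 and DB#3 were 0.23, -0.22 and 0.17 from D for *Jdp2* and -0.39, -0.88 and -0.62 for *Fos*, all with overlapping arrays.

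Among the Jun genes, which encode the partners of Batf, Batf3 and Fos proteins, *Jun* had the opposite order from *Junb* and *Jund* between the cell types. *Jun* lay between 3.30 and 4.17 on the melanoma arrays (median 3.83) and between 1.30 and 2.69 on the myeloid arrays, with no overlap, and was higher in melanoma by 1.55 ± 0.17, 2.92-fold. Its melanoma means lay between 3.64 ± 0.33 (SD, n = 3) in M and 3.97 ± 0.09 (n = 4) in DB#1, and all neighbours in that order overlapped. Slide took 54.6% of the variance of *Jun* within lines.

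*Junb* lay between 2.03 and 3.53 on the melanoma arrays (median 2.97) and between 3.77 and 5.34 on the myeloid arrays, a difference of -2.07 ± 0.24. Within the melanoma model its lines overlapped, and its differences from M were between -0.40 ± 0.40 in D and -0.06 ± 0.43 in DB#2. *Junb* varied more between slides than between melanoma lines. The 6 melanoma arrays of slide 1 gave 2.03 to 2.73 and the 6 of slide 3 gave 2.98 to 3.53, without overlap. A second *Junb* probe was well above background on 10 of the 24 arrays and was not used.

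*Jund* lay between 4.15 and 5.11 on the melanoma arrays (median 4.64) and between 5.13 and 6.45 on the myeloid arrays, a difference of -1.49 ± 0.14. It was 4.42, 4.38 and 4.50 in M and 4.50, 4.34, 4.15 and 4.62 in D. The values were 5.11, 4.69, 4.78 and 4.76 in DB#1, 4.74, 4.71 and 4.98 in DB#2, and 4.80, 4.60 and 4.64 in DB#3. Each of the 3 brain-derived lines was above all M arrays, by 0.40 ± 0.23, 0.38 ± 0.25 and 0.25 ± 0.25. A second *Jund* probe, well above background on all 24 arrays, gave 0.39, 0.52 and 0.41. D and M overlapped, with a difference of -0.03 ± 0.23.

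The Fos genes, whose products bind DNA only with a partner, were all higher on average in the myeloid lines, to very different degrees. *Fosl1* was well above background on all 7 myeloid arrays and, of the 17 melanoma arrays, on D replicate 3 alone. It was -1.24, -0.04, 0.03 and -0.16 in M0 and -0.95, -0.65 and -0.57 in J365, and -3.65 on D replicate 3. Relative to M, DB#1, DB#2 and DB#3, where no array read it, M0 was at least 15.3-fold to at least 17.2-fold higher and J365 at least 11.8-fold to at least 13.3-fold higher. On D replicate 3, 89.9% of all probes were well above background, against 43.6% to 53.8% on the other arrays, so that readings of dim genes on it stand apart from the rest.

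*Fosl2* lay between -1.03 and 0.55 on the melanoma arrays (median -0.57) and between 1.20 and 2.63 on the myeloid arrays, with a difference of -2.72 ± 0.21 (6.57-fold). Its melanoma lines overlapped and were within 0.26 ± 0.36 of M. A second *Fosl2* probe was well above background on 8 of the 24 arrays and was not used. *Fosb* was the Fos gene with the smallest difference between the cell types, -0.66 ± 0.22, with overlapping arrays of -3.48 to -1.44 in melanoma and -2.77 to -1.69 in myeloid lines. A second *Fosb* probe was well above background on 1 of the 24 arrays and was not used. The *Fosb* difference was -1.45, 0.17 and -0.72 on slides 1, 2 and 3, so its sign differed between slides. Slide 2 held D replicate 3 at -1.44, M0 replicate 4 at -2.47 and J365 replicate 4 at -2.77. The difference without these arrays is given below.

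**Figure D2:**
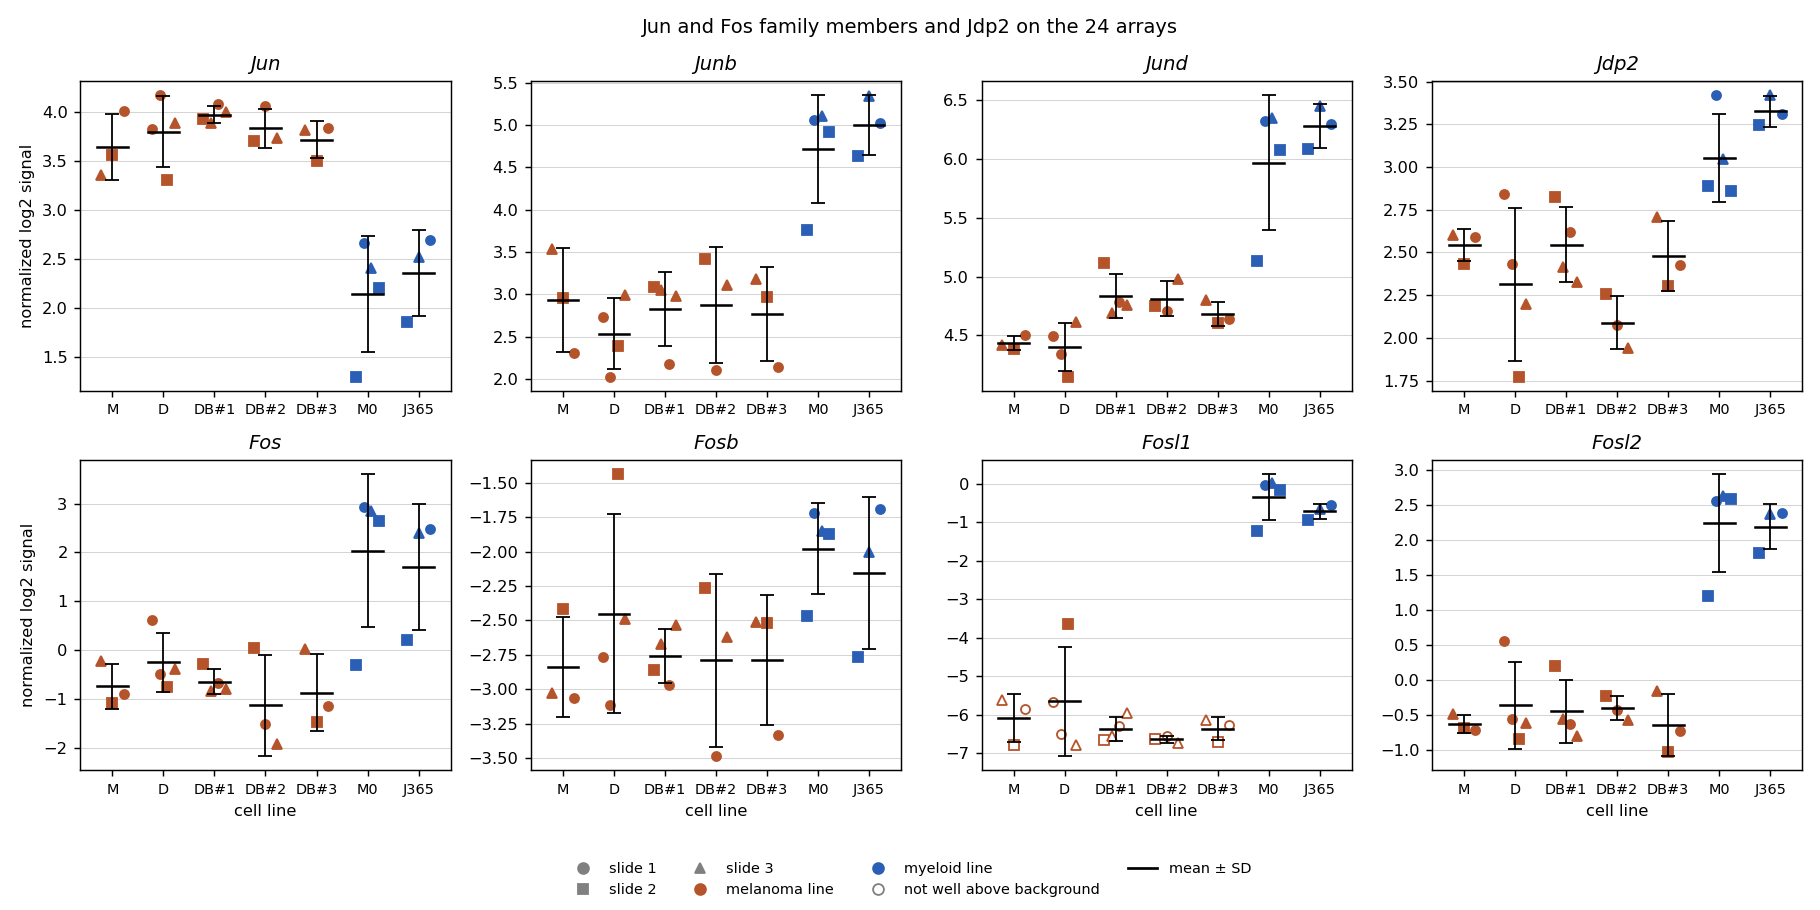
Normalized log2 signal (vertical axes, one scale per gene) of the other 8 genes on each array, by line (horizontal axis); marker shape gives the slide, open markers were not well above background, and black bars are the mean ± SD of 3 or 4 arrays. Jun is higher in the melanoma lines, while Junb, Jund, Jdp2, Fosl1 and Fosl2 are higher on every myeloid array, and Fos overlaps through M0 replicate 4 and J365 replicate 4.

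*Fos* was the member with the largest spread within the myeloid lines. It was -0.30 on M0 replicate 4 and 0.20 on J365 replicate 4, whereas the other 5 myeloid arrays lay between 2.40 and 2.94. Both arrays are the ones whose titles carry no replicate number, so that theirs is only a name. All myeloid titles hold the tag p20, whose meaning the labels do not give. They were on slide 2, as was M0 replicate 3, which read 2.65. The melanoma arrays lay between -1.92 and 0.62 with a median of -0.76. The difference between melanoma and myeloid lines was -2.60 ± 0.41 over all arrays. The order of J365 and M0 was not settled by these values, with a difference of -0.34 ± 0.70.

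Some other genes of the early response were low on the same arrays. Of 19 immediate-early genes that were well above background on all 7 myeloid arrays, M0 replicate 4 had the lowest value of the 7 for 11, while it was lowest for 23.1% of all 19228 genes read on these arrays. J365 replicate 4 had the lowest value for 2 of the 19, against 12.7% of all genes. Among the lowest pair of arrays, M0 replicate 4 was found for 13 of the 19 (37.7% of all genes) and J365 replicate 4 also for 13 (28.9%). The genes that follow were chosen after their values were seen. *Egr2*, an early growth response factor, was -2.41 on M0 replicate 4 and -2.48 on J365 replicate 4, and -0.05 to 1.28 on the other 5. *Btg2*, an antiproliferative early gene, was 0.55 and 0.92 on these arrays and 2.08 to 2.44 on the others. *Nr4a2*, an orphan nuclear receptor gene, read 1.23 on M0 replicate 4 and 0.93 on J365 replicate 4, with 1.17 to 1.30 on the others. What set these arrays apart was not tested.

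**Figure D3:**
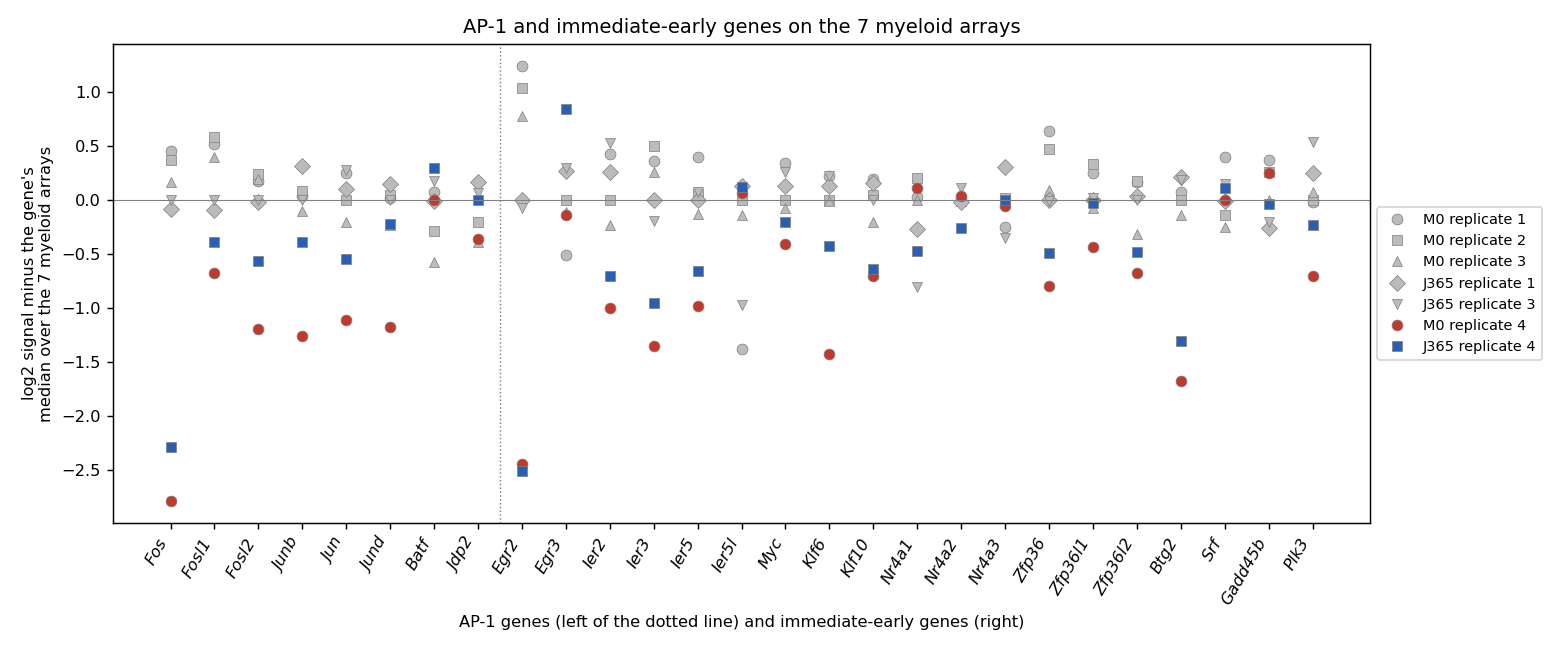
Log2 signal minus the gene's median over the 7 myeloid arrays (vertical axis) for 8 AP-1 genes and 19 immediate-early genes (horizontal axis); red circles are M0 replicate 4, blue squares J365 replicate 4 and grey markers the other 5 arrays. Fos and Egr2 were more than 2 below the median on both coloured arrays, whereas neither Batf nor Jdp2 was lowest on either of them.

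The values were therefore also computed without D replicate 3, M0 replicate 4 and J365 replicate 4. The *Batf* difference was then 0.67 ± 0.18 for D minus M, and the *Batf3* difference was 1.10 ± 0.30. *Fos* in melanoma against myeloid lines was -3.33 ± 0.29, and no myeloid array remaining overlapped a melanoma array for *Fos*. *Fosl2* was -2.95 ± 0.19, *Junb* -2.31 ± 0.25 and *Fosb* -0.96 ± 0.19 in the same comparison.

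**Figure D4:**
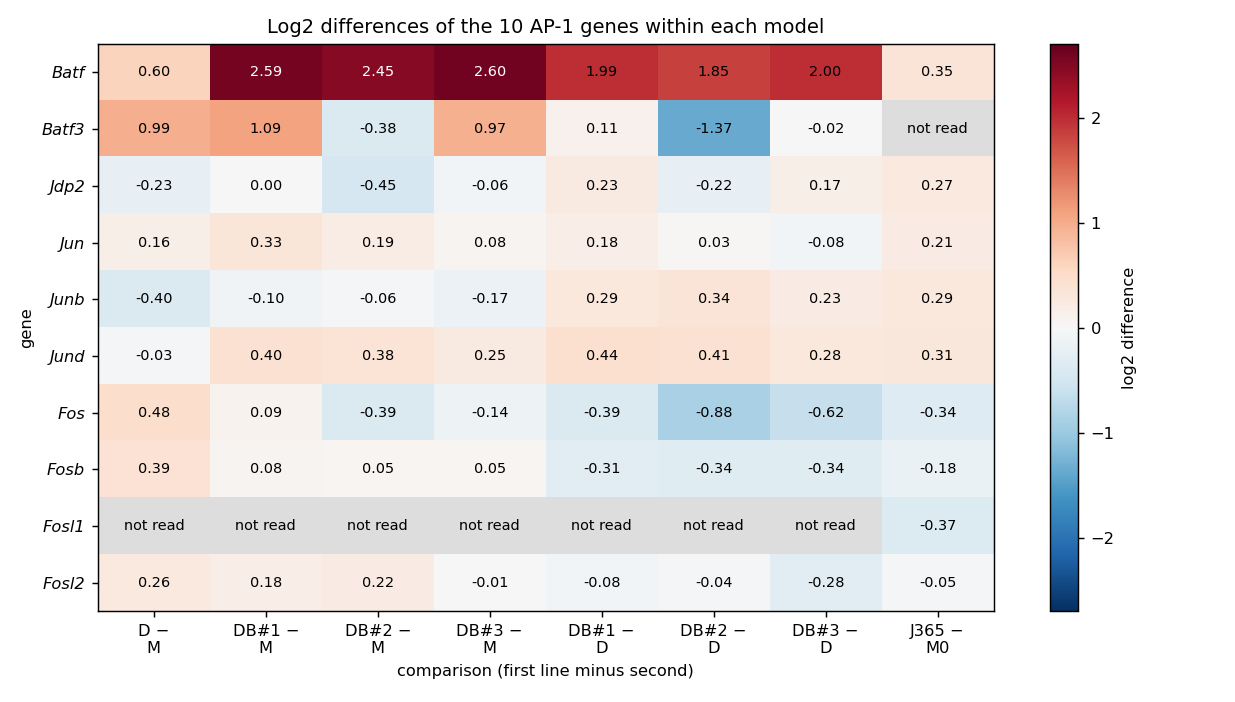
Log2 difference of each of the 10 genes (rows) between 2 lines of a model (columns, first line minus second); red is higher and blue lower in the first line, and grey cells mark genes that neither line read above background on all its arrays. Batf stands out with 1.85 to 2.60 in the 6 columns of brain-derived lines, and Batf3 in DB#2 has the opposite sign from D, DB#1 and DB#3 relative to M.

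The number of members whose arrays did not overlap is given beside the same share of all genes tested, from which nothing is read because the members were chosen on these contrasts. In D against M, 2 of 9 members tested were higher without overlap (*Batf*, *Batf3*), against 3.86% of all genes, and 0 lower, against 4.58%. In DB#1 3 were higher (*Batf*, *Batf3*, *Jund*; all genes 12.1%) and 0 lower (7.86%). In DB#2 2 were higher (*Batf*, *Jund*; 12.6%) and 1 lower (*Jdp2*; 8.85%). In DB#3 3 were higher (*Batf*, *Batf3*, *Jund*; 12.5%) and 0 lower (8.44%). In J365 against M0 0 of 9 were higher (5.42%) or lower (3.08%). Between melanoma and myeloid lines 2 of 10 were higher (*Batf3*, *Jun*; 18%) and 6 lower (*Batf*, *Junb*, *Jund*, *Jdp2*, *Fosl1*, *Fosl2*; 16.1%). The median fitted difference of the 10 members, *Fosl1* included although nearly all melanoma arrays were below background for it, was 0.33 in D, 0.14 in DB#1, -0.00403 in DB#2, 0.0187 in DB#3 and 0.0797 in J365, where that of all genes tested was -0.0122, 0.0374, 0.0168, 0.0295 and 0.0169.

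Whether the labelled cells were present was checked with markers. All 10 melanocyte markers were well above background on every melanoma array, and 10 of 12 myeloid and leukocyte markers on every myeloid array. On the melanoma arrays the myeloid and leukocyte list was read in part. *Itgam*, *Csf1r* and *Fcer1g* were well above background on all 17 and *Coro1a* on 16, whereas *Ptprc*, the pan-leukocyte phosphatase CD45, was so on none. The summed linear level of the 12 genes was 9.13 to 16.2 in M, 7.41 to 14.3 in D, 9.51 to 15.3 in DB#1, 8.97 to 15.7 in DB#2 and 9.08 to 13.7 in DB#3, all overlapping, and 119.4 to 151.7 in the myeloid lines. Of 8 T cell markers, 4 (*Cd3d*, *Cd3e*, *Cd4* and *Lck*) were read on all melanoma arrays, with sums of 3.04 to 5.87 in M and 2.32 to 6.94 over the other melanoma lines. Of 7 dendritic cell markers, *Zbtb46* and *Siglech* were read on all melanoma arrays, while *Itgax* was read on none, *Clec9a* and *Flt3* on D replicate 3 only, *Cd209a* on 1 D array, and *Xcr1* on D replicate 3 and 1 DB#2 array. The dendritic cell sums were 91.1 to 119.3 in M and 49.0 to 131.1 over the other melanoma lines. They came almost wholly from *Siglech*, with a mean log2 signal of 6.69 in M, 6.93 in M0 and 6.88 in J365. Every other marker of that list had a mean below 0 in each line. The sum of 7 neural markers was 18.1 to 19.0 in DB#1 and 8.80 to 16.6 in M, without overlap, with *Mbp*, the myelin basic protein gene, at 2.86 and 0.72. It was 10.1 to 15.4 in DB#2 and 13.6 to 13.9 in DB#3. The part of these cell types in the *Batf* and *Batf3* values was not tested. In such bulk RNA, fewer cells of a type and less RNA per cell cannot be told apart.

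The genes whose pattern over the 24 arrays was most like that of *Batf* were *Kcnn4*, a calcium-activated potassium channel (Pearson r = 0.939), *Plpp7* (0.933) and *Cd72*, a B-cell coreceptor (0.932). *Kcnn4* was -2.71 in M, -1.85 in D, 0.28 in DB#1, -0.00691 in DB#2 and -0.35 in DB#3 and 3.44 in M0 and 3.51 in J365. *Cd72* was -2.81 in M, -1.94 in D, 1.24 in DB#1, 0.87 in DB#2 and -0.56 in DB#3. For *Batf3* the most alike were *Klhl30*, *Osbpl10* and *Slc4a4* (each 0.987). *Osbpl10*, an oxysterol-binding protein gene, was 0.37 in M, 1.09 in D, 1.15 in DB#1, 0.02 in DB#2 and 1.10 in DB#3, with DB#2 again below D. For *Fosl1* they were *Cd79b*, *Itga2b* and *Klrb1f* (each 0.994), all read on the myeloid arrays. These correlations are descriptions over arrays of 2 cell types, which share the contrast between the types, the slides and the scaling.

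Around the members, a network of 173 genes was examined, of which 172 had a probe. It held 8 lists of other bZIP factors, IRF factors, the MAP kinase cascade and its inhibitors, immediate-early genes, AP-1 target genes and immune genes linked to BATF and BATF3. These genes were tested with limma on all genes, and a gene was called at a Benjamini-Hochberg adjusted p under 0.05. The lists were drawn up with earlier results of these data known. Nothing is therefore read from a list's share of calls beside that of all genes, here or in the comparisons that follow. The p-values of named genes carry the same limit. In D against M, 2 of 124 network genes rose and 6 fell, where 1.38% and 1.58% of all genes did, and the network's median difference was 0.04. In DB#1, 6 of 126 rose and 5 fell (all genes 2.05% and 1.65%), with a median of 0.0931. In DB#2, 7 of 126 rose and 4 fell (2.15% and 1.28%), with a median of -0.00488. In DB#3, 3 of 124 rose and 6 fell (1.61% and 1.15%), with a median of 0.0747. In J365 against M0, 1 of 123 rose and 0 fell (0.721% and 0.745%). At an unadjusted limma p under 0.05 there were 8 such genes in J365. The split of calls depended on the scaling between arrays. It was 5 risen and 4 fallen in D, and 16 risen and 1 fallen in DB#2, with no scaling, and 4 and 4 in DB#3 with quantile normalization.

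Of 9 genes of interferon regulatory factors, 6 were tested in each line set against M, and the rest were too dim. Those tested moved in different directions in the brain-derived lines. Whether the factors given here bind DNA beside Batf and Jun dimers was not tested. *Irf7*, an interferon-induced regulator, was 1.27, 1.34 and 1.58 in DB#2 and -0.58, -0.69 and 0.05 in M, a rise of 1.80 ± 0.26 (limma adjusted p = 0.000142). In DB#3 it fell by 1.36 ± 0.26 (limma adjusted p = 0.0032). *Irf9*, the DNA-binding part of the interferon-response complex, rose by 1.26 ± 0.19 in DB#2 (limma adjusted p = 0.00024) and was chosen after its values were seen, as was the *Irf7* value of DB#2. Under quantile normalization, as the mean over probes or with the replicate block, *Irf7* was not called in DB#3.

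Of the immune genes linked to BATF and BATF3, *Havcr2*, the checkpoint receptor TIM-3, fell in every line set against M. It was 0.11, -0.06 and 0.02 in M and -1.14, -1.51, -1.49 and -1.70 in D. It fell by 1.49 ± 0.22 in D (limma adjusted p = 0.000192), by 2.34 ± 0.22 in DB#1 (2.78e-07), by 1.99 ± 0.23 in DB#2 (8.49e-06) and by 2.00 ± 0.23 in DB#3 (8.14e-06). In J365 it rose by 1.05 ± 0.22 relative to M0 (limma adjusted p = 0.011). The J365 call was lost without M0 replicate 3 or without J365 replicate 4. It was also lost with quantile normalization and when no other lines entered the fit. The 4 comparisons with M share the M arrays. *Gata3*, a transcription factor of T helper cells and other lineages, rose by 2.44 ± 0.34 in DB#2 (limma adjusted p = 8.42e-05) and was well above background on 1 of the 3 M arrays.

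Among kinases and their inhibitors, *Map3k5* (the stress kinase ASK1) fell by 1.12 ± 0.17 in D (limma adjusted p = 0.000299), 1.18 ± 0.17 in DB#1 (0.000107) and 1.12 ± 0.18 in DB#3 (0.000543). The D call was lost when no other lines entered the fit (adjusted p = 0.0736), and the DB#1 and DB#3 calls with quantile normalization (0.0754 and 0.178). Its DB#2 arrays were -0.66, -0.19 and -0.38, and overlapped those of M. *Dusp9*, a phosphatase that inactivates MAP kinases, was read on no M array and on every DB#1 and DB#3 array. It was at least 2.58-fold higher in DB#1 (limma adjusted p = 2.0e-05) and at least 1.93-fold higher in DB#3 (limma adjusted p = 0.000343).

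Target genes of AP-1 did not move as one. *Plau*, the urokinase protease gene, was read on no M array and on all DB#2 arrays, at least 7.33-fold higher (limma adjusted p = 3.6e-05), while its receptor gene *Plaur* fell by 0.97 ± 0.22 in DB#2 (limma adjusted p = 0.0146). *Spp1*, the secreted protein osteopontin, rose by 1.43 ± 0.28 in DB#1 (limma adjusted p = 0.00272), a call lost with quantile normalization (0.189). The neural marker sum was also higher in DB#1, as given above. *Spp1* averaged -2.07 in M, -0.50 in DB#2 and -2.80 in DB#3. The neural sums of DB#2 and DB#3 overlapped that of M. The part of neural cells in these values was not tested. *Tgfb1* fell by 1.56 ± 0.38 in D (limma adjusted p = 0.0237) and by 2.19 ± 0.38 in DB#1 (limma adjusted p = 0.000868). The D call rested on some arrays, since D replicate 1 read -0.00144 against -1.94 to -2.39 on the others and the call was lost without any single array of M or of D replicates 2, 3 and 4. *Hmga2*, a chromatin protein gene, rose by 1.54 ± 0.35 in D (limma adjusted p = 0.0159) and *Myc* by 1.04 ± 0.22 (limma adjusted p = 0.0106), and *Myc* also rose by 0.93 ± 0.24 in DB#3 (limma adjusted p = 0.0376). *Ier5l*, an immediate-early gene, fell by 1.18 ± 0.31 in DB#2 (limma adjusted p = 0.0356). The *Hmga2* call was lost without M replicate 1 or 2 and the *Myc* call in D without M replicate 2 or 3. Both calls were also lost when no other lines entered the fit. The *Plaur* call was lost without M replicate 3 or DB#2 replicate 1 or 3. The calls of *Ier5l* in DB#2 and of *Myc* in DB#3 were lost without any single array of the lines compared. In DB#2 the summed linear level of 7 fibroblast markers was 1.82 to 2.48, against 0.929 to 1.18 in M. *Col1a1*, *Col1a2*, *Dcn* and *Pdgfrb* had a higher mean in DB#2, and *Pdgfrb* was also higher in D, DB#1 and DB#3. *Pdgfra* went the other way, with -5.49 in DB#2, where no array read it, and -3.15 in M. *Col3a1* and *Lum* were read on no array of either line. The part of this marker sum in these results was not tested.

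**Figure D5:**
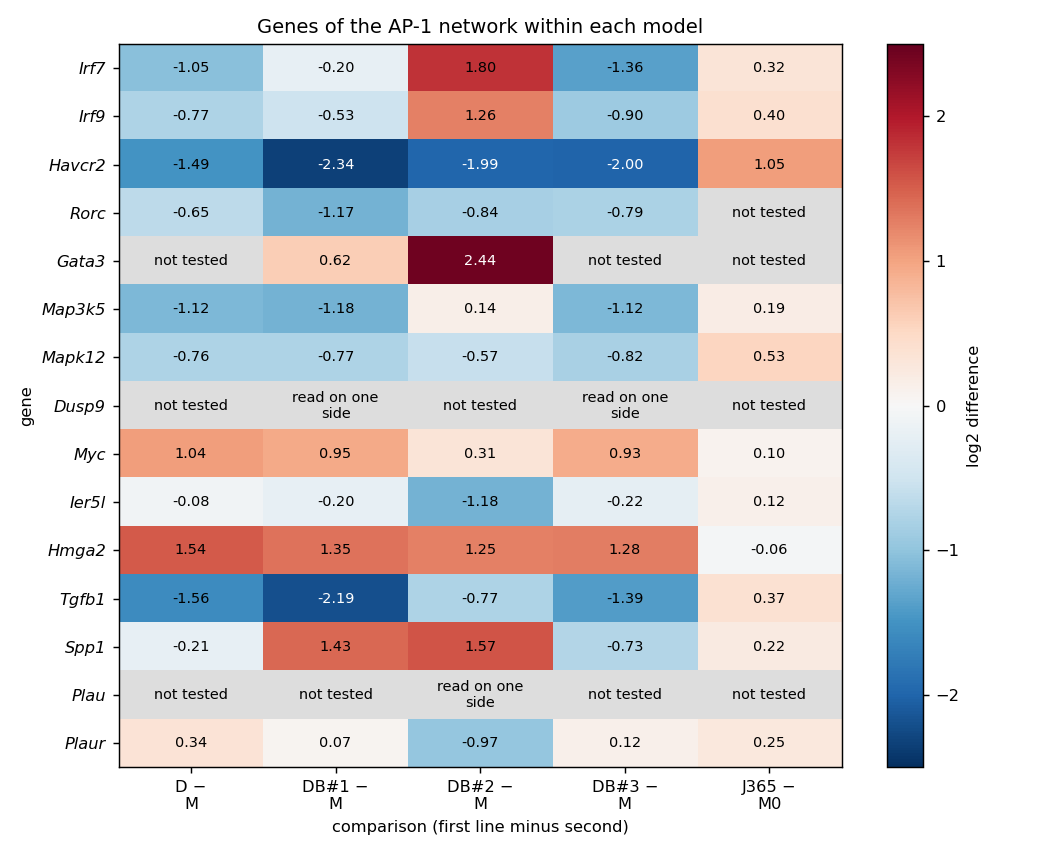
Log2 difference (colour and number) of 15 network genes (rows) between the lines of a model (columns, first line minus second); grey cells were not tested, or were read above background on one side only. Havcr2 is below 0 in the 4 melanoma columns and 1.05 in J365 minus M0, and Irf7 and Irf9 are above 0 in DB#2 and below 0 in D and DB#3.

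Whether the change from M to D differed from that from M0 to J365 was tested for the network genes with an interaction contrast. It was positive for 0 and negative for 5 of 139 genes (all genes 1.22% and 0.852%), and 21 passed an unadjusted limma p under 0.05. The 5 genes were *Havcr2*, *Irf7*, *Irf9*, *Map3k5* and *Mapk12*, a p38 kinase gene. With quantile normalization the split was 2 positive and 3 negative.

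Between the melanoma and the myeloid lines, 58 of 143 network genes were higher in melanoma and 67 lower by limma, where 33.3% and 38.5% of all genes were. Of the ATF, CREB and C/EBP factors 9 of 24 were higher and 11 lower. *Atf3*, a stress-induced partner of Jun, was read on all 17 melanoma and on no myeloid array and was at least 14.5-fold higher (limma adjusted p = 1.96e-17). *Nfil3*, a bZIP repressor, was lower by 4.19 ± 0.27 (limma adjusted p = 1.64e-11). Of the MAF, NFE2 and BACH factors 6 of 10 were higher and 3 lower, with *Maf* at least 16.3-fold higher (limma adjusted p = 1.59e-19). Of the immediate-early genes 9 of 25 were higher and 14 lower. *Nr4a1*, an orphan nuclear receptor gene, was higher by 6.55 ± 0.17 (limma adjusted p = 1.85e-18). Of the AP-1 target genes 10 of 24 were higher and 12 lower. *Ccnd1*, the cyclin of the early cell cycle, was at least 454.1-fold higher (limma adjusted p = 1.15e-19), and *Il6*, the interleukin gene, was read on no melanoma array and at least 108.2-fold lower there (limma adjusted p = 5.83e-23). The MAP kinase cascade split into 12 higher and 11 lower of 28, its inhibitors into 7 and 7 of 15, the IRF factors into 1 and 4 of 7, and the immune genes into 4 and 5 of 10.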

How the data were processed

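Gene expression was measured in total RNA of 24 samples, 17 of melanoma and 7 of myeloid lines, on one-colour Agilent arrays read with Feature Extraction 10.7.3.1. The authors deposited scanner intensity values per spot (gProcessedSignal, background-corrected by the software and not scaled between arrays). All 1511424 values of their series table equalled it. Control spots and 117 of 56605 probes with outlier flags were left out, leaving 56488. No pair of arrays held identical values, and no spot used was saturated. Accessions were matched without versions to RefSeq symbols of GRCm38.p6, which named 32917 probes, and the remaining probes went by their deposited names. The array design refers to mm9, so gene coordinates of the table were not used. From the deposited intensity, log2 values minus each array's 75th percentile were computed, and the brightest probe stood for a gene. Levels of different probes were not compared.

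The groups were the lines of the labels. All arrays were fitted in 1 model with a term per line (limma 3.58.1, lmFit and eBayes, R 4.3.3; 17 residual degrees of freedom), for genes well above background on all arrays of 1 or more lines in the comparison. P-values were adjusted by Benjamini-Hochberg over all genes tested in each of 7 comparisons. The code was tested on simulated data. A gene read on no array of a group has a bound: the bright group's mean minus a floor averaged over the dim group's arrays, which is the larger of the probe's own signal and the dimmest signal well above background. For the type comparison, line means were averaged.

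The members and lists were chosen with earlier results of these data known. Named network genes were up to 3 called genes with the largest rise and fall in each comparison. In the type comparison they came from up to 2 each way per list, of which some are given. A network gene that this rule names is not reported here. Genes like a member were the 3 with the highest correlation. Samples with the same replicate number deviated together in each of 3 pairs of M and DB#1 (correlations of deviations 0.54, 0.35 and 0.80, the last on 1 slide), and not in the other comparisons. Alternatives were other scalings, normexp (offset 50, on spot medians), no filter on dim probes, the mean over probes, slide or replicate number as a block, only the arrays compared, and each array left out. The number of arrays per line limits the precision.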

Additional observations from a re-analysis of the deposited data

Results flagged for a closer look

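In 30 groups of 4 arrays (10 genes in D, DB#1 and M0), a single array stood far from the other 3 in 5. The rule is set to flag about 1 in 20 groups by chance. These groups share arrays, and most flags fell on M0 replicate 4, so the count is not set against that rate. On M0 replicate 4, *Fos* read -0.30 against 2.65 to 2.94 on the other M0 arrays, *Fosl1* -1.24 against -0.16 to 0.03, *Fosl2* 1.20 against 2.57 to 2.63, and *Junb* 3.77 against 4.92 to 5.11. *Junb* on DB#1 replicate 3, the line's array on slide 1, read 2.18 against 2.98 to 3.09. In M, DB#2 and DB#3 the array of slide 1 was also the lowest for *Junb*.

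The difference between the change in the melanoma pair (D minus M) and that in the myeloid pair (J365 minus M0) passed limma's test for 5 network genes. It was -2.53 ± 0.31 for *Havcr2* (limma adjusted p = 2.83e-05), which was -1.49 in the melanoma pair and 1.05 in the myeloid pair. It was -1.37 ± 0.35 for *Irf7* (limma adjusted p = 0.045), with -1.05 and 0.32. Another *Irf7* probe gave -0.19 for this difference. For *Irf9* it was -1.17 ± 0.26 (limma adjusted p = 0.0141), with -0.77 and 0.40. For *Map3k5* it was -1.31 ± 0.24 (limma adjusted p = 0.00299), with -1.12 and 0.19, and for *Mapk12* -1.30 ± 0.26 (limma adjusted p = 0.00771), with -0.76 and 0.53. The call of *Havcr2* held in all 24 alternatives, that of *Map3k5* was lost with quantile normalization, and that of *Irf7* held in 6 of 24, with limma adjusted p between 0.00188 and 0.811.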

How the results depend on the processing

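The *Batf*, *Batf3* and other member differences were recomputed under 1080 combinations of a comparison and an alternative. Of these, 14 moved by more than the spread between arrays. Differences near 0 could change sign, such as *Jdp2* in DB#3 (-0.06 as reported, 0.18 with the replicate block) and *Fosl2* in DB#2 (0.22, and -0.18 as the mean over probes). Moved values included *Batf* in D (0.39 with quantile normalization, 0.78 with no scaling and 0.42 with normexp) and values under normexp or no scaling. Leaving out the filter on dim probes does not alter a member's estimate.

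The counts of network genes called (8 in D, 11 in DB#1, 11 in DB#2, 9 in DB#3, 1 in J365, 125 between the cell types and 5 for the difference between models) stayed within 1.5 times under 113 of 138 alternatives. When the fit held no other arrays than those of the lines set against each other, the counts were 1 in D, 0 in J365 and 3 for the difference between models. In DB#2 the count was 17 with no scaling, 17 with normexp and 7 with no filter on dim probes. In J365 it was 3 with quantile normalization, and it was 2 when scaled to the 75th percentile of detected probes, with no scaling and with slide as a block. For the difference between models it was 9 when scaled to the 75th percentile of detected probes and 9 with slide as a block.

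With 1 array left out at a time, the counts were 3 (without M replicate 3) to 11 (without D replicate 1) in D, where leaving out M replicate 2 gave 4. They were 7 (without M replicate 3, and also without DB#1 replicate 1) to 10 in DB#1, 7 (without M replicate 3) to 8 in DB#2, and 4 (without DB#3 replicate 3) to 7 in DB#3, where leaving out M replicate 3 gave 5. They were 0 (without M0 replicate 3 or J365 replicate 4) to 1 in J365, 124 to 127 between the cell types, and 3 (without M replicate 3 or J365 replicate 3) to 10 (without D replicate 1) for the difference between models. Without D replicate 3, M0 replicate 4 and J365 replicate 4 together, an alternative chosen after seeing the data, they were 8 in D, 2 in J365, 125 between the cell types and 7 for the difference between models. The cause of these shifts was not tested.

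With the replicate block, the counts were 7 in D, 11 in DB#1, 11 in DB#2, 7 in DB#3, 1 in J365, 122 between the cell types and 4 for the difference between models. Only M and DB#1 are paired by the correlations of same-numbered arrays, and the block left their count at 11. Elsewhere the arrays share only a number, with correlations from -0.66 (the 1 pair of M and DB#3) to 0.77.

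Splits of the calls into higher and lower that moved by over 10 percentage points, beside those given above, were 4 and 5 in D with quantile normalization (2 and 6 as reported), 6 and 6 when scaled on detected probes and 3 and 5 with normexp. They were 4 and 5 in DB#3 with normexp (3 and 6), 1 and 2 in J365 with quantile normalization (1 and 0), and, for the difference between models (0 and 5), 3 and 6 when scaled on detected probes and 1 and 6 with normexp. With no scaling, the median of all genes moved to 0.167 in D, 0.252 in DB#2, 0.171 in J365 and 0.0283 between the cell types (-0.126 as reported). For genes near background, the signal sets a bound and not a level.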
